A study of Mus musculus with 14 samples.

Results

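The genes described here encode the proteins of the cytosolic ribosome, and they were followed in oligodendrocyte lineage cells of the mouse brain. A gene was taken as a member when its symbol is that of a ribosomal protein (Rpl or Rps with its number, or Rpsa and Rplp0 to Rplp2). Symbols marked as pseudogenes (-ps) were left out, and the mean over all libraries had to be at least 10 normalised counts. A normalised count is a read count divided by a size factor of its library. This gave 82 genes of 18355 in the table, 49 of the large and 33 of the small subunit, and all 82 were among the 15565 genes tested. Of 83 rows that fit the naming rule, Rpl39l was left out at a mean of 1.90, and the members nearest above the limit were Rpl32l at 45.6 and Rpl37 at 57.9.

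Messenger RNA was sequenced from brain cells taken at postnatal day 8 and bound to magnetic beads, either against O4, a lipid antigen of immature oligodendrocytes, or against CD140a (Pdgfra), the receptor that marks oligodendrocyte precursor cells (OPCs). 2aOKO mice carry a floxed Mfsd2a allele with the Pdgfra-cre transgene, so that the deletion is driven in every cell in which that promoter is active. Their controls, 2afl/fl mice, carry the floxed allele without Cre. There were 4 libraries from 2aOKO O4 cells, 3 from 2afl/fl O4 cells, 4 from 2aOKO OPCs and 3 from 2afl/fl OPCs. The comparisons ask what differs between the sorts and what differs with the deletion of Mfsd2a, a transporter of lysophosphatidylcholine.

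Normalised totals ran between 34120823 and 41030171 per library, and 16964 to 17662 genes were above 0. Mfsd2a itself had 7101, 6536, 3615 and 6596 normalised counts in 2aOKO O4 cells, against 6762, 7777 and 12885 in 2afl/fl O4 cells. It had 7055, 7188, 3665 and 6843 in 2aOKO OPCs, against 7585, 7979 and 16343 in 2afl/fl OPCs, so the transcript was still read in all 2aOKO libraries, and the genotypes overlapped in O4 cells and not in OPCs. The summed level of 10 oligodendrocyte markers ran from 359360 to 1407759 in O4 libraries, against 11495 to 14685 in OPC libraries. The lowest O4 value was that of 2afl/fl O4 library 2. The count of members called between sorts in 2afl/fl mice and their median are given with and without it. Other results include it unless stated otherwise.

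A ribosome joins ribosomal RNA with a set of ribosomal proteins that is nearly the same in every cell, and each protein is needed in about equal amounts. The proteins of the small subunit surround the site where messenger RNA is decoded, and those of the large subunit surround the site of peptide bond formation. Their messenger RNAs belong to the most abundant in dividing and growing cells, and most begin with a C followed by a run of pyrimidines, the 5' terminal oligopyrimidine (TOP) motif, through which mTORC1 and Larp1 control their translation. Oligodendrocytes make large amounts of myelin protein and lipid as they mature.

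The promoters are shown for some of the members on which the results below turn, since shared start-site letters are what these genes are known for. RefSeq promoters (GRCm38.p6, 250 bases before the start to 50 after it) matched 61 of the 82 members by symbol, and 21 had no entry. The lines below run 5' to 3' from 60 bases before the annotated start to 20 bases from it onwards. Capitals mark matches to the motifs searched: a C within 5 bases of the start followed by at least 4 C or T, the ETS letters CCGGAAG, the YY1 letters ATGGCG and the Sp1 letters GGGCGG, the last 3 on either strand.
Rpl38 (chr11:114668520-114668599, plus strand): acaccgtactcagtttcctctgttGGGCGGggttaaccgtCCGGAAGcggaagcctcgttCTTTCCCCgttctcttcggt
Rps18 (chr17:33955646-33955725, minus strand): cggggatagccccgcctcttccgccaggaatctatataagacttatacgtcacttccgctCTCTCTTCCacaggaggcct
Rps2 (chr17:24720003-24720082, plus strand): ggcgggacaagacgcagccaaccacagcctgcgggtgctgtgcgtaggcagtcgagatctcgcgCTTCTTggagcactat
Rpl41 (chr10:128549149-128549228, minus strand): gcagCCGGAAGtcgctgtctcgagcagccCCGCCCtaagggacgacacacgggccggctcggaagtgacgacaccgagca
Rpsa (chr9:120127706-120127785, plus strand): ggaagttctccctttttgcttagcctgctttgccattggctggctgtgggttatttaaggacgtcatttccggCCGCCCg
Rps3a1 (chr3:86142649-86142728, minus strand): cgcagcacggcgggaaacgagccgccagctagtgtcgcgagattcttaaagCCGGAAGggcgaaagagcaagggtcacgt
Rpl13 (chr8:123102290-123102369, plus strand): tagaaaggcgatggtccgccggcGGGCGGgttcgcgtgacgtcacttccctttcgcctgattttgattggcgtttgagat
Rpl7l1 (chr17:46782637-46782716, minus strand): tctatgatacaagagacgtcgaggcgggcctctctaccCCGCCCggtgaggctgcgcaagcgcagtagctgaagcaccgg

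Over the whole promoter window, the pyrimidine run at the start was found in 30 of 61 members (49.2%), against 21.2% of all 27025 genes with a promoter entry and 23.7% of the 12216 other tested genes. The ETS letters, which the GABP factor binds, were found in 25 of 61 members, against 9.93% of all genes and 17.6% of the other tested genes. The YY1 letters were found in 19 members (31.1%), against 10.2% and 16.0%. The Sp1 letters were found in 38 members (62.3%), against 38.2% of all genes and 66.7% of the other tested genes. TATAAA between 40 and 20 bases before the start was found in Rpl22l1 alone (1.64%), against 2.41% and 1.51%. Of the sequences shown, those of Rpl38, Rps18 and Rps2 hold the pyrimidine run near their annotated start. Rps3 and Rpl27, not shown, held none of the letters searched in the same stretch around the start. The match depends on that annotation, and a line without it says only that the letters were not found there.

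Ribosomal protein genes were higher in O4 cells than in OPCs in both genotypes. In 2aOKO libraries they held 1.13%, 1.15%, 1.22% and 1.11% of all normalised counts in O4 cells, against 0.991%, 1.07%, 0.950% and 0.968% in OPCs. In 2afl/fl libraries the shares were 1.49%, 1.08% and 1.16% in O4 cells, against 1.099%, 1.08% and 0.966% in OPCs. The 2aOKO O4 libraries all lay above the 2aOKO OPC libraries. The 2afl/fl sorts overlapped, because O4 library 2 lay among the OPC libraries. Means were 1.15% ± 0.0495 and 0.994% ± 0.0513 in 2aOKO O4 cells and OPCs (SD, n = 4 each), and 1.245% ± 0.216 and 1.05% ± 0.0725 in 2afl/fl O4 cells and OPCs (SD, n = 3 each). The shares leave out rows named as copies of members, such as Rps6-ps4 with a mean of 14853 normalised counts. In sorted bulk cells, fewer cells of a type and less RNA per cell cannot be told apart.

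**Figure D1:**
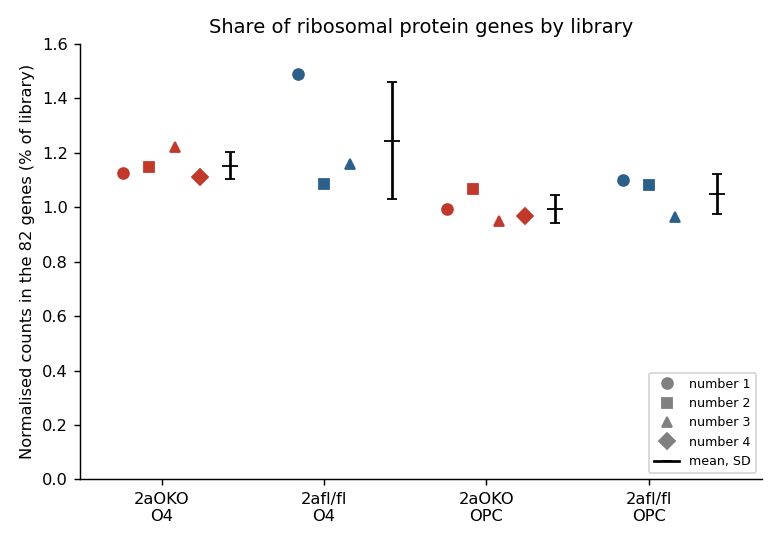
Share of all normalised counts (in percent, y axis from 0) held by the 82 ribosomal protein genes in each of the 14 libraries, with the mean and SD of each group beside its points and one symbol per library number. The 2aOKO O4 libraries sit between 1.11% and 1.22%, above all 2aOKO OPC libraries, and 2afl/fl O4 library 1 is the highest at 1.49%.

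Gene by gene, limma with Benjamini-Hochberg adjustment over all genes tested (threshold 0.05) called 51 of 82 members higher in O4 cells and 1 lower in 2aOKO mice, where 17.6% of all genes were called higher and 15.5% lower. In 2afl/fl mice 33 members were called higher and 0 lower, against 14.3% and 12.2% of all genes. Over both genotypes 71 members were called higher and 1 lower, against 23.8% and 22.3%. The median log2 fold change of the members over both genotypes was 0.33, with a middle range from 0.27 to 0.40, and that of all genes was -0.01. At an unadjusted p under 0.05 in either direction there were 72 members in 2aOKO mice, where 43% of all genes were, 54 in 2afl/fl mice, where 38.6% were, and 75 over both genotypes, where 52.7% were. By the sign alone 81 of 82 members were above 0, against 48.2% of all genes. Without any overlap between sorts, 56 members were higher in O4 and 1 lower in 2aOKO mice, where 21.5% and 19% of all genes were. In 2afl/fl mice 31 were higher and 0 lower, where 17.6% and 16.5% of all genes were.

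Both subunits held members that rose. The 49 large-subunit members had a median log2 fold change of 0.32 with 42 called higher, and the 33 small-subunit members one of 0.35 with 29 called higher. O4 and OPC libraries of one genotype carry a shared number in their labels. Within such a number, the median over members of O4 minus OPC was 0.30, 0.22, 0.57 and 0.26 for 2aOKO numbers 1 to 4, and 0.53, 0.03 and 0.45 for 2afl/fl numbers 1 to 3. For 2afl/fl number 2 only 51 members were above 0 and 31 below, while the other numbers had 77 or more above. Without 2afl/fl O4 library 2 the count in 2afl/fl mice became 63 higher, with a median of 0.48, and without 2afl/fl O4 library 1 it became 7, with a median of 0.21.

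Where the number was entered as a block within genotype, 75 members were higher and 1 lower over both genotypes, and as a random effect it raised the 2afl/fl count of 33 to 50. That count became 0 with only the 2afl/fl libraries in the fit, 1 without the 4 libraries numbered 3 and 13 with each library scaled to its total. Scaling each library to its total moved the median of all genes to -0.13 and that of the members to 0.22. Under that scaling 47 members were higher and 1 lower over both genotypes, and the calls over all genes became 16.2% higher and 33.5% lower. Scaling shifts all genes of a library by nearly the same log2 amount. The distance of the members from all genes was therefore bound to stay nearly the same. Ribosomal protein genes are short, with a median coding length of 462 bases against 1429.5 over the tested genes with a known length. With the trend of log2 values on coding length removed from each library, 54 of 80 members with a length were higher and 1 lower, at a median of 0.24 against 0.01 for all genes.

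**Figure D2:**
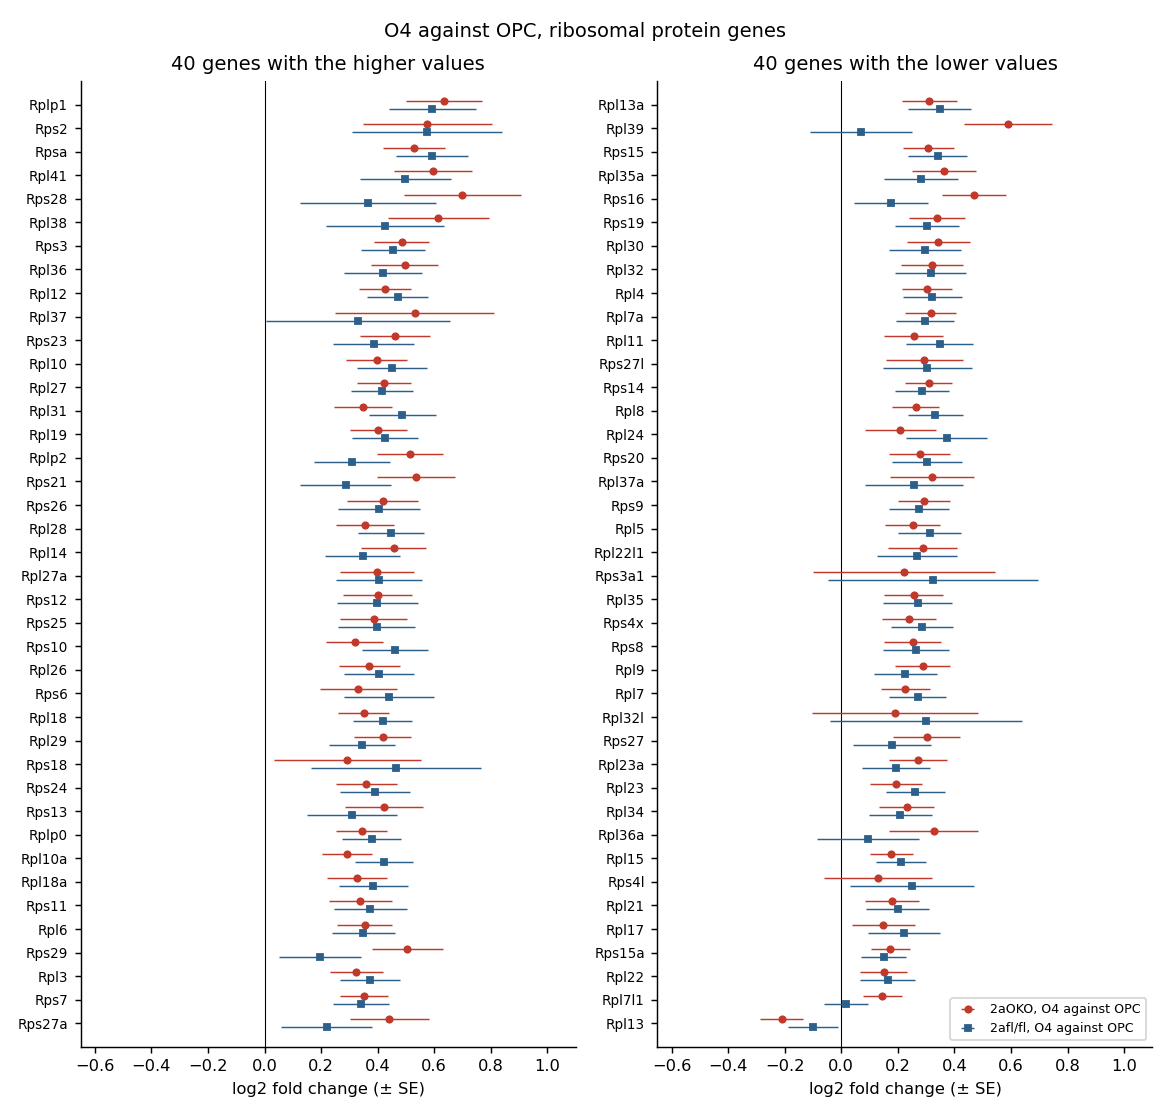
Log2 fold change of O4 against OPC with its standard error for 80 of the 82 ribosomal protein genes, with 2aOKO mice as circles and 2afl/fl mice as squares, ordered by the value over both genotypes from Rplp1 at 0.61 down to Rpl13 at -0.16. Only Rpl13 lies left of 0 in both genotypes.

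The stalk of the large subunit, which recruits elongation factors, is built from Rplp0, Rplp1 and Rplp2, and all 3 rose in O4 cells. Rplp1 had 4401, 3982, 5097 and 4121 normalised counts in 2aOKO O4 cells, against 2665, 3124, 2769 and 2752 in 2aOKO OPCs. It had 5731, 3312 and 5024 in 2afl/fl O4 cells, against 3158, 3133 and 2805 in 2afl/fl OPCs. No O4 library overlapped the OPC libraries, and the log2 fold change of 0.61 ± 0.10 (SE) over both genotypes was the largest of any member (limma, adjusted p = 0.000215). Rplp0, the scaffold of the stalk, had a log2 fold change of 0.36 ± 0.07 (adjusted p = 0.000629), and Rplp2, the partner of Rplp1, one of 0.41 ± 0.09 (adjusted p = 0.00157).

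Rpsa, a protein of the small subunit that also serves as a laminin receptor at the cell surface, had the smallest p of all members. It had 15370, 14469, 17183 and 14159 normalised counts in 2aOKO O4 cells, against 10506, 11039, 10350 and 10409 in 2aOKO OPCs. In 2afl/fl mice it had 20583, 12964 and 17972 in O4 cells, against 11354, 11517 and 10698 in OPCs. The sorts did not overlap, and the log2 fold change was 0.56 ± 0.08 (SE, adjusted p = 0.000103). Rps3, which lies at the entry of the messenger RNA channel and also takes part in DNA repair, had 13637, 14483, 16428 and 13062 in 2aOKO O4 cells, against 10209, 10686, 10159 and 9968 in 2aOKO OPCs. Its log2 fold change was 0.47 ± 0.07 (adjusted p = 0.000156), again with no overlap within either genotype.

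Among the other members with the smallest p were Rpl12, at the base of the stalk, which rose by 0.45 on the log2 scale, Rpl27 by 0.42, Rpl18 by 0.38 and Rpl19 by 0.41, all of the large subunit. Their adjusted p lay between 0.000151 and 0.000513. Rpl41, the shortest ribosomal protein, had 7942, 6870, 9135 and 7104 in 2aOKO O4 cells, against 5101, 6213, 4187 and 5123 in 2aOKO OPCs. These did not overlap, and the log2 fold change over both genotypes was 0.55 ± 0.11 (adjusted p = 0.000679). Rpl38, which in the mouse is needed for the translation of Hox messenger RNAs in the embryo, had 415, 381, 408 and 329 in 2aOKO O4 cells, against 215, 359, 189 and 263 in 2aOKO OPCs. Those ranges overlapped in 1 library of each sort, and the log2 fold change was 0.52 ± 0.14 (adjusted p = 0.00606).

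Members with a known second role were called higher too. Rpl5 and Rpl11, which bind Mdm2 when ribosome assembly fails, had log2 fold changes of 0.28 ± 0.07 and 0.30 ± 0.08 (SE; limma, adjusted p = 0.00573 for both). Rps19, the protein most often mutated in Diamond-Blackfan anaemia in humans, was at 0.32 (adjusted p = 0.00268). Rpl13a, part of a complex that silences interferon-induced messages in human cells, was at 0.33 (adjusted p = 0.00191), and Rpl10a at 0.36 (adjusted p = 0.000568). Rps27a, made as a fusion with ubiquitin, was at 0.33 (adjusted p = 0.0192).

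Rpl13, a protein of the large subunit, was the exception. It had 6734, 6980, 7381 and 7183 normalised counts in 2aOKO O4 cells, against 7942, 8328, 8464 and 7989 in 2aOKO OPCs. In 2afl/fl mice it had 8503, 6841 and 7293 in O4 cells, against 8443, 7139 and 8681 in OPCs. The 2aOKO sorts did not overlap, while the 2afl/fl sorts did. The log2 fold change over both genotypes was -0.16 ± 0.06 (SE, adjusted p = 0.0420), and it lost the call when any of 11 of the 14 libraries was left out, with a range from -0.20 to -0.12.

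Set against the other members rather than against all genes, the distance of Rpl13 was larger. With each library centred on the median of its members, Rpl13 was 0.50 below the others (log2 difference -0.50 ± 0.07, adjusted p = 9.36e-05), Rpl7l1 0.26 below, Rpl22 0.18 below, and Rpl21 and Rpl15 0.15 below each. Rplp1 was 0.27 above them (adjusted p = 0.00347), Rpsa 0.22 and Rpl41 0.21. These were the 5 lower and 3 higher calls among members, in a fit where 54.9% of all genes were called lower and 7.09% higher. Centring takes the rise of the members out of every gene. Few calls among members and many lower calls over all genes were therefore bound to follow, and the contrast between them is no result. Within genotypes, the same fit put 2 members above and 1 below in 2aOKO mice, where 5.65% and 42% of all genes were called. It put 1 above and 2 below in 2afl/fl mice, where 4.74% and 31.8% were. The other 74 members did not pass the test of a departure from their own median.

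Some ribosomal proteins have a paralog made from a second gene. Rpl22 had 8263, 8251, 9565 and 7800 normalised counts in 2aOKO O4 cells, against 7420, 7661, 8116 and 7283 in 2aOKO OPCs. Its partner Rpl22l1, which Rpl22 represses in mouse cells, had 1175, 1261, 1326 and 1023, against 946, 1120, 919 and 930. Ranges overlapped for both. Over both genotypes Rpl22l1 was called higher at 0.28 ± 0.09 (SE, adjusted p = 0.0242), and Rpl22, at 0.16 ± 0.06, was not (adjusted p = 0.0584, and 0.0183 with the block within genotype).

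Rpl7l1, a paralog of Rpl7 that acts in assembly of the large subunit, had 2970, 3002, 3277 and 2988 in 2aOKO O4 cells, against 2738, 2846, 2885 and 2595 in 2aOKO OPCs. In 2afl/fl mice it had 2807, 2662 and 2861 in O4 cells, against 2528, 3040 and 2685 in OPCs. The sorts did not overlap in 2aOKO mice and did in 2afl/fl mice. It was not called, at 0.08 ± 0.05 (adjusted p = 0.216), while Rpl7 was, at 0.25 ± 0.07 (adjusted p = 0.00670). Rps27 and its paralog Rps27l, a p53 target, were at 0.24 and 0.30 (adjusted p = 0.0424 and 0.0292), and Rps4x was at 0.26 (adjusted p = 0.00807). Rps4l was at 0.19 and Rpl32l at 0.24, and neither passed the test (adjusted p = 0.310 and 0.404). No coding length was known for Rps4l or Rpl32l.

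Besides Rpl22, Rpl7l1, Rps4l and Rpl32l, members not called over both genotypes included Rpl17, Rpl36a, Rpl37, Rps18 and Rps3a1. Their log2 fold changes were all above 0, and for Rps18 (0.38) and Rps3a1 (0.27) the block within genotype brought the adjusted p to 0.000239 and 0.00342.

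By mean over the 14 libraries the most abundant members were Rpl4 at 19338, Rplp0 at 17667 and Rps2 at 14958 normalised counts, and the least abundant were Rpl32l, Rpl37 and Rps28 at 274. Per kilobase of transcript, the members had a median level of 4633 normalised counts over 80 genes with a known length, the highest being Rpl22 at 16896 and the lowest Rpl37 at 69.4 and Rps6 at 737. Rps6, the substrate of S6 kinase, and Rpl37 each share the table with a row named as a copy of them. Rps6-ps4 had a mean of 14853 against 647 for Rps6 itself, and Rpl37rt had 3562 against 57.9 for Rpl37. The same holds for Rpl14, Rpl17, Rpl34, Rplp2, Rps15a, Rps18 and Rps27 with copies that held 20.8% to 78.8% of the pair. How reads that fit both were divided is not given in the sources used here, so levels and changes of these members are uncertain.

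With the rows named as copies added to each member, a choice made after seeing the data, the values moved little where the call had been firm. Rps6 was at 0.32 (adjusted p = 0.00120) with Rps6-ps4, against 0.39 alone, and Rpl14 at 0.39, against 0.40. Rps6-ps4 held 95.8% of the Rps6 sum and was at 0.32 alone. Rpl14-ps1 held 75.7% of the Rpl14 sum and was at 0.38 alone. Rpl37 with Rpl37rt was at 0.29 (adjusted p = 0.0124), and Rpl17 with Rpl17-ps10 at 0.18 (adjusted p = 0.0247), while neither member passed alone. The copy rows held 98.4% and 78.8% of the sums for Rpl37 and Rpl17. Both copies passed alone, Rpl37rt at 0.29 and Rpl17-ps10 at 0.18 (limma, adjusted p = 0.0128 and 0.0182). The sums for Rps6, Rpl14, Rpl37 and Rpl17 therefore say little about those members themselves. Rpl12 and Rpl28 are listed on chromosomes 10 and 1 in the table, while RefSeq places them elsewhere. Their rows may therefore hold reads of a copy, and their printed values are uncertain to that extent.

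The members varied together across libraries. Over the 3321 pairs of members the median Pearson correlation of log2 values was 0.88 over the 14 libraries, and 0.80 for deviations from the group means. These are descriptions over libraries that share size factors. Members with the weakest ties to the rest, by their median correlation within groups, were Rps18 at -0.06, Rps4l at -0.03, Rps28 at 0.02 and Rps2 at 0.03, and Rpl28, Rpl7 and Rpl29 had the closest ties, at 0.90 to 0.91.

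For Rps18, Rps2 and Rps3a1 the level followed the library number in both sorts, and for Rps28 it did so in part. Rps2, a protein of the messenger RNA entry channel (chromosome 17, 24939037 to 24940902 in mm39), had 19261, 10447, 12578 and 18827 normalised counts in 2aOKO O4 cells, against 24076, 16711 and 23498 in 2afl/fl O4 cells. It had 13391, 7724, 7096 and 13165 in 2aOKO OPCs, against 14444, 14682 and 13514 in 2afl/fl OPCs. Numbers 2 and 3 of the 2aOKO libraries were the low ones in both sorts. Rps18, of the head of the small subunit (chromosome 17, 34170972 to 34174640), had 6470, 2966, 3590 and 6115 in 2aOKO O4 cells, against 8622, 6321 and 7301 in 2afl/fl O4 cells. It had 5069, 2780, 2577 and 5161 in 2aOKO OPCs, against 5770, 5157 and 5103 in 2afl/fl OPCs. The same 2 numbers were low, and the deviations of Rps2 and Rps18 from their group means had r = 0.97 over 14 libraries.

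The row Rps18-ps4 (chromosome 13, 97887620 to 97897472) ran the other way. It had 4429, 7791, 8733 and 4067 in 2aOKO O4 cells, against 4868, 3585 and 4951 in 2afl/fl O4 cells, and 3404, 6423, 6203 and 3146 in 2aOKO OPCs, against 3823, 3598 and 3464 in 2afl/fl OPCs. Its ratio to Rps18 was 2.31 to 2.63 in the libraries of 2aOKO numbers 2 and 3 and 0.565 to 0.698 in all others. The sum of the 2 rows was 10899, 10756, 12322 and 10183 in 2aOKO O4 cells, against 13490, 9906 and 12252 in 2afl/fl O4 cells, and 8474, 9203, 8780 and 8307 in 2aOKO OPCs, against 9593, 8755 and 8567 in 2afl/fl OPCs. The SD within groups on the log2 scale was 0.131 for the sum and 0.440 for Rps18 alone. As a sum, Rps18 was higher in O4 cells at 0.37 ± 0.07 (SE; limma, adjusted p = 0.000504).

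Rps28, also on chromosome 17 (34042011 to 34043537), had 406, 174, 256 and 298 in 2aOKO O4 cells, against 377, 319 and 455 in 2afl/fl O4 cells. It had 182, 154, 144 and 190 in 2aOKO OPCs, against 291, 309 and 283 in 2afl/fl OPCs. The OPC groups did not overlap, so that in OPCs all 2aOKO libraries were low, not only the numbers that were low for Rps2. Its deviations had r = 0.83 with those of Rps2. Rps10 and Rpl10a, which lie on chromosome 17 between Rps2 and Rps28, had r = 0.23 and -0.07 with Rps2.

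Rps3a1 (chromosome 3, 86045247 to 86049976) followed another order of numbers. It had 6501, 12978, 14136 and 11783 in 2aOKO O4 cells, against 16141, 6220 and 7794 in 2afl/fl O4 cells, and 5749, 11215, 11186 and 10549 in 2aOKO OPCs, against 11144, 6179 and 5787 in 2afl/fl OPCs. Number 1 of 2aOKO and numbers 2 and 3 of 2afl/fl were low in both sorts, between 5749 and 7794, while all others were at 10549 or more. Why these levels follow the number was not tested.

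**Figure D3:**
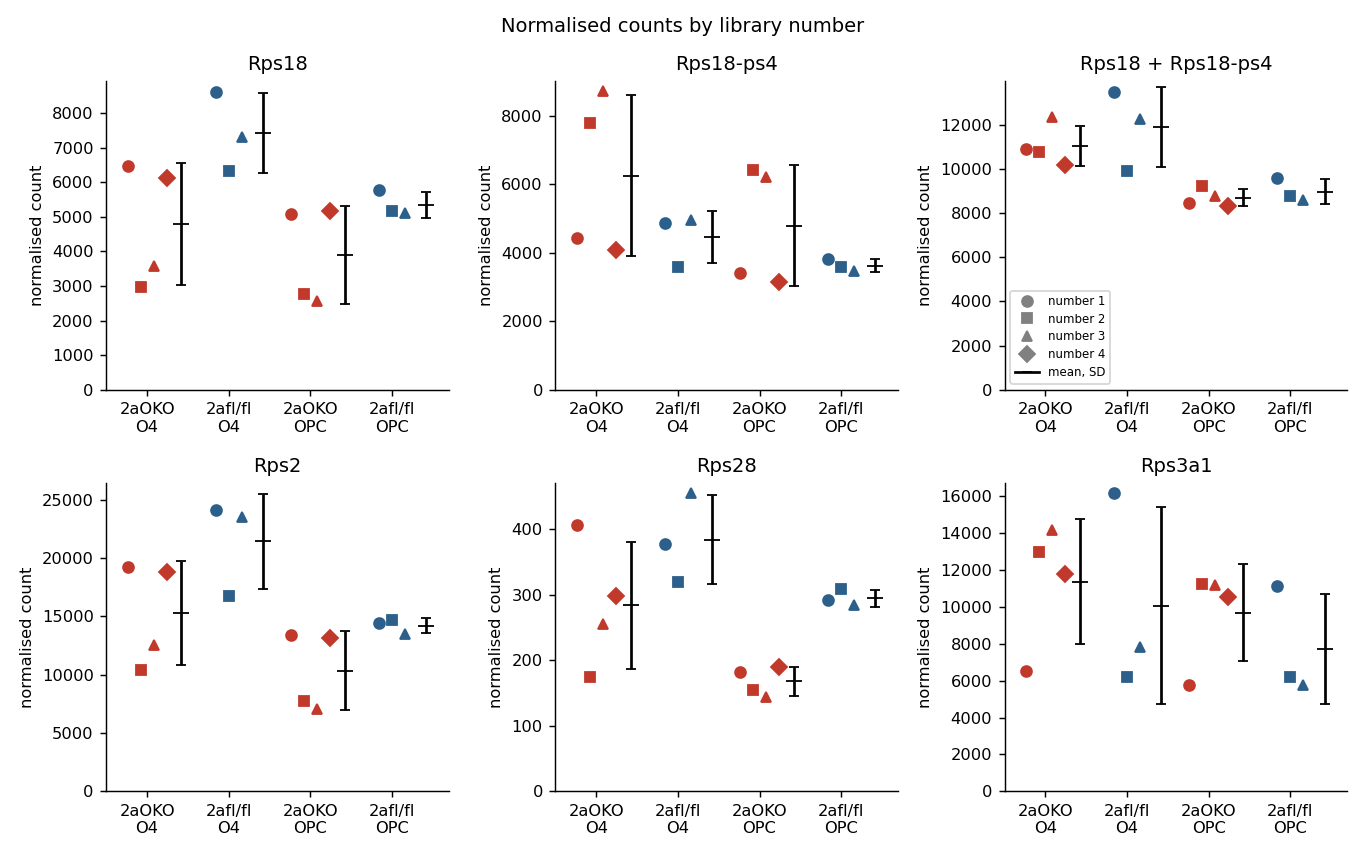
Normalised counts (y axes from 0) of Rps18, Rps18-ps4, their sum, Rps2, Rps28 and Rps3a1 in each library, one symbol per library number, with the mean and SD of each group. 2aOKO numbers 2 and 3 are low for Rps18 and Rps2 and high for Rps18-ps4 in both sorts, and the sum of the Rps18 rows spans 8307 to 13490.

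The deletion of Mfsd2a was set against its control within each sort. In O4 cells 0 of 82 members were called in either direction by limma, as were 0% of all genes, and the median log2 fold change was -0.08, with 75 members below 0. That of all genes was 0.00 after rounding. At an unadjusted p under 0.05 there were 2 members, against 2.89% of all genes. In OPCs again 0 members were called, with 0% of all genes, the median was -0.08 and 74 members were below 0, and 3 had an unadjusted p under 0.05, against 1.61%. With a median standard error of 0.12 per member, changes of the size of these medians were not detectable gene by gene, and since the members vary together, the signs of the 82 genes are not independent of each other.

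The sign of the median depended on a single library in O4 cells, while in OPCs the median stayed below 0 with any library left out. In O4 cells the median ran from -0.21 without 2afl/fl O4 library 2 to 0.03 without 2afl/fl O4 library 1, and in OPCs it ran from -0.13 to -0.05. With the coding length trend removed the medians became -0.03 in O4 cells and -0.05 in OPCs, with the number as a block over all libraries -0.05 and -0.06, and without the libraries numbered 3 -0.13 and -0.12. No member of the 2aOKO O4 group lay wholly below the 2afl/fl O4 group, where 1.53% of all genes did, and Rpl7l1 lay wholly above it, as did 1.14%. In OPCs Rps2 and Rps28 lay wholly below, against 2.87% of all genes, and 0 lay wholly above, against 1.88%.

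Rps18, Rps28 and Rps2 held the 3 smallest limma p-values in O4 cells, and Rps28 held the smallest in OPCs. Rps18 and Rps2 followed the library number, while Rps28 was low in all 2aOKO OPC libraries. Rps28 had a log2 fold change of -0.82 ± 0.22 (SE) in 2aOKO OPCs against 2afl/fl OPCs and -0.48 ± 0.22 in O4 cells (limma, adjusted p = 0.9999 and 0.9992). Rps18 was at -0.53 ± 0.28 and -0.70 ± 0.28, and as a sum with Rps18-ps4 at -0.05 ± 0.10 and -0.10 ± 0.10. Rps2 was at -0.52 ± 0.25 in each sort. Among members above 0, Rps3a1 was at 0.34 ± 0.35 in OPCs and 0.24 ± 0.35 in O4 cells, and Rpl37 at 0.06 ± 0.30 and 0.27 ± 0.30. As a sum with Rpl37rt, which held 98.4% of the pair, Rpl37 was no longer above 0, at -0.19 ± 0.12 in OPCs and -0.003 ± 0.12 in O4 cells. Rps29, a zinc-binding protein of the small subunit, and Rpl39, near the peptide exit tunnel, were at -0.33 and -0.37 in OPCs (unadjusted p = 0.0284 and 0.0461 from limma). No member passed the adjusted test.

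The test of whether the genotype effect differed between O4 cells and OPCs called 0 members and 0% of all genes, with a median of -0.01 and 40 members above 0. One member, Rpl39, had an unadjusted p under 0.05, where 0.848% of all genes did. It had 1050, 1224, 1287 and 953 normalised counts in 2aOKO O4 cells, against 1230, 842 and 987 in 2afl/fl O4 cells, and 693, 978, 590 and 765 in 2aOKO OPCs, against 938, 1102 and 856 in 2afl/fl OPCs. The genotypes overlapped in both sorts, and the difference of 0.52 ± 0.24 (SE) had an adjusted p of 0.9999 by limma.

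**Figure D4:**
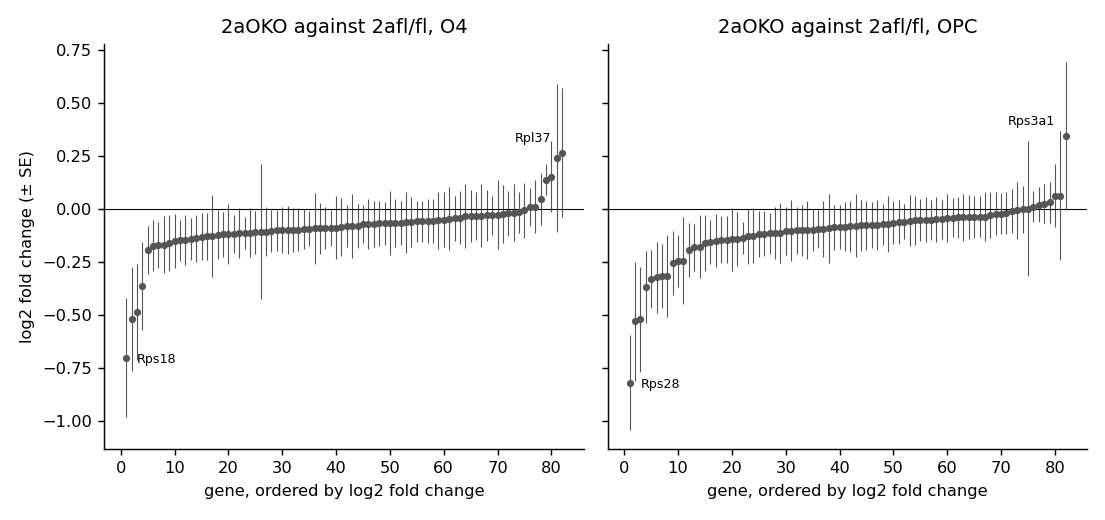
Log2 fold change of 2aOKO against 2afl/fl with its standard error for each ribosomal protein gene in O4 cells (left) and OPCs (right), each ordered by value, with the lowest and highest gene named. Most genes lie just below 0 in both panels, with medians of -0.08, and the lowest are Rps18 in O4 cells at -0.70 and Rps28 in OPCs at -0.82.

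Other genes of the translation apparatus rose with the ribosomal proteins in O4 cells over both genotypes, and the counts below are to be read against 23.8% of all genes called higher and 22.3% called lower. Ribosomal components outside the naming rule were higher in 5 of 5, among them the fusion gene Fau (0.49) and the scaffold protein Rack1 (0.27). They also include Rps27rt, a row named as a copy of the member Rps27, at 0.24 (limma, adjusted p = 0.0498). Of 14 subunits of eIF3, which brings the small subunit to messenger RNA, 12 were higher and 0 lower, with a median of 0.24 and the highest value for Eif3j1 (0.46). Of 16 elongation factors and other messages with a TOP motif, 11 were higher and 0 lower, with a median of 0.21. They included Eef1b2 (0.43), Eef1g (0.43), Eef2 (0.33) and Eef1a1 (0.32), and Vim at -0.31 did not pass the test.

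Among factors that build ribosomes, more genes were called higher than lower. Of 50 biogenesis factors 25 were higher and 1 lower, with a median of 0.18. Pno1 (0.84) and Nhp2 (0.74), which act on small-subunit assembly and on RNA modification, and Sbds (0.65), which releases eIF6 from the large subunit, had the larger values. Tcof1, a factor of ribosomal DNA transcription, was lower at -0.19. Of 15 genes of RNA polymerase I and ribosomal DNA transcription 7 were higher and 0 lower (median 0.17), led by Polr1d at 0.64. Of 13 snoRNA host genes tested 3 were higher, Snhg6, Snhg1 and Gas5, and 0 lower (median 0.12).

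Of 11 chaperones and importins of ribosomal proteins 3 were higher and 2 lower, with Ltv1, a factor of small-subunit export, at 0.54 and Tnpo1, an importin, at -0.44. Of 11 genes of ribosome rescue 2 were higher and 0 lower (median -0.02). Regulators were mixed. In the mTORC1 pathway 8 of 22 genes were higher and 2 lower (median 0.04). The higher ones included 4 Lamtor subunits of the lysosomal anchor of mTORC1 and Ddit4 (0.58) and Sesn2 (0.37), which restrain mTORC1, and Larp1 was at -0.09 without passing the test. Of 10 p53 and MYC factors 3 were higher and 1 lower, with Mycl at 1.92, Mdm2 at 0.37 and Mycn at -0.48.

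Of 7 transcription factors whose letters were searched in the promoters or which act there, Tbpl1 (0.42) and Zbtb7a (0.21) were higher, Sp1 (-0.33), Gabpa (-0.22) and Hcfc1 (-0.16) were lower, and Yy1 was at 0.02. All 30 cell cycle genes were lower in O4 cells, with a median of -0.76. In the genotype comparisons 0 genes of any of these lists were called.

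**Figure D5:**
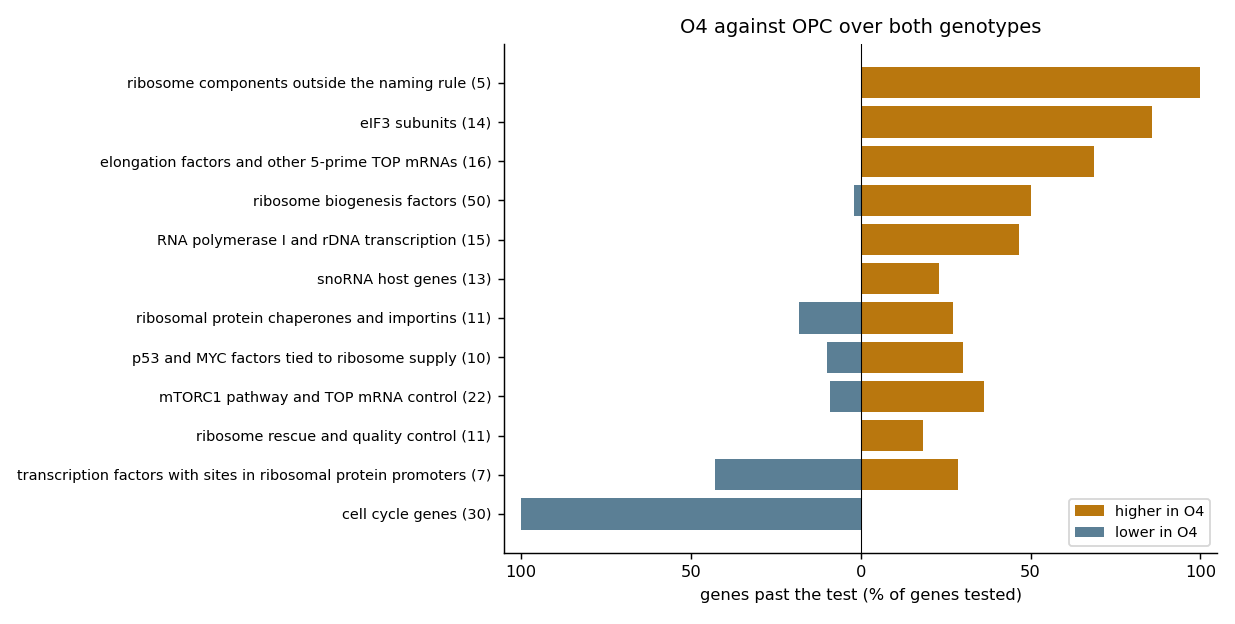
Genes past the limma test in O4 cells against OPCs over both genotypes, as a percent of the genes tested in each list, with higher genes drawn to the right of 0 and lower genes to the left and the number tested in brackets. The eIF3 subunits, with 12 of 14 higher, and the ribosomal components outside the naming rule, with 5 of 5, stand at one end, and the cell cycle genes, with 30 of 30 lower, at the other.

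Markers of other cells moved with the sorts too. All 12 microglial markers were higher in O4 libraries, and their summed level was 7696 to 12823 there, against 3188 to 5135 in OPC libraries. Of 7 border macrophage markers 6 were higher, with sums of 1160 to 1571 against 266 to 353. All 8 meningeal fibroblast markers were lower, at 19623 to 37097 against 45246 to 72449, and of 10 neuronal markers 5 were lower and 1, Slc17a7, higher, with sums of 13816 to 20788 against 22633 to 27120. Every marker of these 4 lists was above 0 in all libraries. Of 8 endothelial and 5 erythroid markers tested 0 passed the test, of 7 pericyte markers 1 was lower, and of 8 astrocyte markers 4 were higher and 1 lower. Of 10 OPC markers 8 were lower in O4 libraries, Pdgfra among them at -0.97, and 1, Gpr17, a marker of committed precursors, was higher at 0.93, while all 10 oligodendrocyte markers were higher. The part of these cells in the levels of the ribosomal protein genes was not tested.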

How the data were processed

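Libraries were made by the authors from 900 ng of total RNA per sample. Per the submitters' notes, reads were aligned with STAR 2.7.8a to mm39 and counted in Partek Flow 10. The values the authors deposited are read counts divided by size factors of the median-ratio method, a normalised signal that is no longer whole, so no count test was run. How many reads stood behind a value is unknown. The authors' 3 tables of fold changes and p-values were not used. All comparisons used limma 3.58.1 in R 4.3.3 on log2(value + 1), where fold changes of low genes are understated, with 1 mean for each of the 4 groups over all 14 libraries, an intensity trend and a minimum mean of 10, which kept 15565 genes and left out 2790. P-values are two-sided and were adjusted by Benjamini-Hochberg, with 0.05 as the threshold. The procedure was tested on simulated data. Nothing in the labels says that libraries of a group came from separate mice, beyond 3 to 4 mice per genotype in the design text, so p-values measure the spread between these libraries.

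The members and gene lists were chosen with earlier results of these data known. Genes named are the 8 members with the smallest p for O4 against OPC in each direction, those with the 3 smallest p in the genotype comparisons, paralog pairs, the most and least abundant members, members with known further roles, those farthest from the members' median, and up to 4 genes of each list. Some genes that this rule names are not reported here. Counts of 5 or fewer and the genes that followed the library number were named after their values were seen. O4 and OPC libraries of one genotype with the same number deviated together over all genes (r between 0.160 and 0.328 in 7 pairs, against -0.240 to 0.0075 in 18 other pairs), so that fits with the number as a block within genotype are given where they change a call. Alternatives covered the pseudocount, the minimum mean, scaling, the block, the samples in the fit, the intensity trend, coding length (GENCODE vM21), copies summed and each library left out.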

Additional observations from a re-analysis of the deposited data

Results flagged for a closer look

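Of 60 groups of 4 libraries examined for the genes given by library, 6 held a library far from the other 3 (Dixon's test at the 95% level, on the gap to the nearest neighbour over the group's range). Chance gives about 1 in 20 for independent groups. These groups are not independent, since the genes vary together and share libraries, so the count of 6 cannot be read as an excess. In 2aOKO O4 library 3, Rpl12 had 10733 normalised counts, Rpl7l1 had 3277 and Rps6 had 843, each the highest of the 2aOKO O4 libraries. In 2aOKO O4 library 4, Rpl32l had 29.7, the lowest of that group. In 2aOKO OPC library 2, Rpl22l1 had 1120, the highest, and in 2aOKO OPC library 1, Rps3a1 had 5749, the lowest of the 2aOKO OPC libraries.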

How the results depend on the processing

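The direction of the median of the members held in O4 against OPC under every setting run, while the counts of members called depended on scaling and on single libraries. In 2afl/fl mice the 33 higher members became 13 with each library scaled to its total, 13 with the total of other genes, 17 with quantile normalisation, 0 with only the groups compared in the fit, 20 without an intensity trend and 1 without the 4 libraries numbered 3. In 2aOKO mice the 51 higher members became 22, 22 and, without those libraries, 6, and the 1 lower member, Rpl13, became 0 without a minimum mean, without an intensity trend and without the libraries numbered 3. Over both genotypes the 71 became 47, 47 and 38, and the 1 lower became 0 without the trend and without the libraries numbered 3. The cause was not tested, though the last of these leaves 10 libraries.

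With single libraries left out, the 2afl/fl count ran from 7 (without O4 library 1) to 63 (without O4 library 2), with 9 without OPC library 3 and 16 without O4 library 3, and its median from 0.21 to 0.48. The 2aOKO count ran from 25 (without 2aOKO O4 library 3) to 66, the count over both genotypes from 60 to 75, and the lower count from 0 to 1 in each. For Rps3a1 in 2aOKO O4 against 2afl/fl O4 cells, the difference of 0.24 became -0.0056 without the libraries numbered 3, and it ran from -0.043 (without 2afl/fl O4 library 2) to 0.65 (without 2afl/fl O4 library 1).

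Pairing by number gave 45 higher members in 2afl/fl mice, 62 in 2aOKO mice and 75 over both with the replicate block within genotype. The same block as a random effect gave 50, 67 and 74, and the number as a block over all libraries gave 38, 57 and 74. The genotype comparisons, run with the random effect and with the block over all libraries, stayed at 0 calls under both. 2aOKO and 2afl/fl libraries share only a number (r between 0.0655 and 0.299 in 6 pairs).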
